A study of Mus musculus with 8 samples.

Results

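The proteasome genes of mouse liver were examined in 8 RNA sequencing libraries from male C57BL/6J mice aged 10 weeks. Members were taken by symbol: every gene whose name begins with Psm, a letter from a to g and a number, leaving out the immune forms Psmb8, Psmb9 and Psmb10. The rule found 47 of the 22565 genes in the table. The treated group received dexamethasone, a potent artificial agonist of the glucocorticoid receptor, at 1.0 mg/kg by intraperitoneal injection each day for 14 days. The control group received saline on the same schedule. Each group held 4 libraries of ribosomal-RNA-depleted liver RNA, called vehicle 1 to 4 and dexamethasone 1 to 4 below. The question was whether the RNA of the proteasome moved with the glucocorticoid, and whether its core and its regulatory subunits moved alike.

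The 26S proteasome is the protease that degrades ubiquitin-tagged proteins. Its 20S core is a barrel of stacked rings: the outer α rings (Psma genes) gate the entrance, and the inner β rings (Psmb genes) carry the cutting sites. A 19S cap, built of ATPases (Psmc) and non-ATPase subunits (Psmd), recognises, unfolds and feeds in the substrate, and smaller activators (Psme) can bind the core in its place. In muscle, glucocorticoids are known to raise ubiquitin-proteasome genes as part of wasting. In liver the same hormones mainly drive glucose production and amino acid breakdown. In any cell, immune signals can exchange the catalytic β subunits for the immune forms and raise the activator PA28, made of the products of Psme1 and Psme2.

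By role, the 47 matches comprised 8 α genes, 8 β genes, 6 ATPase genes, 14 non-ATPase genes, 4 activator genes (Psme1 to Psme4), the inhibitor gene Psmf1 and 4 chaperone genes of core assembly (Psmg1 to Psmg4). The remaining 2 matches were Psmc3ip, which encodes a meiotic recombination factor that binds an ATPase subunit and is no part of the proteasome, and Psme2b, a near-copy of Psme2. A gene was tested where it reached 0.5 FPKM (fragments per kilobase, normalised to depth) in at least 4 libraries. This held for 44 members and 10221 genes in all. The 3 members not tested were Psma8, a testis form of an α subunit, which was listed at 1.01, 0.214, 0.174 and 0 FPKM with vehicle and at 0 in all but dexamethasone 3 (0.119 FPKM), Psmb11, the thymus form of a catalytic subunit, and Psme2b. The last 2 were listed at 0 in all 8 libraries.

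Sequence upstream of the transcription start was available from RefSeq (build GRCm38.p6) for 39 of the 47 members, matched by symbol. It is shown for 6 genes that the results below turn on: Psma3, an α gene with low values after dexamethasone, the catalytic β genes Psmb5 and Psmb6, the ubiquitin receptor Psmd4, and the PA28 genes Psme1 and Psme2. Of the 250 bases before the RefSeq start, only the longest stretch outside GENCODE M21 exons is printed. For Psme1 that stretch lies between alternative first exons. Capitals mark 4 motifs searched on both strands: TGACNNNGC, the core of the antioxidant response element bound by NFE2L1 and NFE2L2, CCAAT, the box bound by NF-Y, CCGGAA, the core of ETS factor sites, and GAAA repeated after a gap of 2 bases, the core of the interferon-stimulated response element. These 4 were picked from 9 patterns after all had been searched in these promoters.
Psma3 (chr12:70974373-70974620, + strand): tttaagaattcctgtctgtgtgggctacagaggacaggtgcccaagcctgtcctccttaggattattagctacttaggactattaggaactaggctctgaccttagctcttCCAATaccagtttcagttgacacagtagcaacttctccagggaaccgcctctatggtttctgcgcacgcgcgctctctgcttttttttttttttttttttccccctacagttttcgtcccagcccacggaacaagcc
Psmb5 (chr14:54618023-54618245, - strand): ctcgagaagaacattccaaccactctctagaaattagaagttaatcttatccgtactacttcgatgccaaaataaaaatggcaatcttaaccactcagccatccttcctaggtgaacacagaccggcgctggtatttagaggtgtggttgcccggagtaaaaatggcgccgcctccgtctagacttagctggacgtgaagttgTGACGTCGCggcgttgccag
Psmb6 (chr11:70525107-70525356, + strand): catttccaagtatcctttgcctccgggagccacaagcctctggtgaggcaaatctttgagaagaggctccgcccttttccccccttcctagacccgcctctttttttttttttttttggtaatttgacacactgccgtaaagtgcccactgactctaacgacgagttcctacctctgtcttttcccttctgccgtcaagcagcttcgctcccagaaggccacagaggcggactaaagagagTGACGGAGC
Psmd4 (chr3:95042615-95042864, - strand): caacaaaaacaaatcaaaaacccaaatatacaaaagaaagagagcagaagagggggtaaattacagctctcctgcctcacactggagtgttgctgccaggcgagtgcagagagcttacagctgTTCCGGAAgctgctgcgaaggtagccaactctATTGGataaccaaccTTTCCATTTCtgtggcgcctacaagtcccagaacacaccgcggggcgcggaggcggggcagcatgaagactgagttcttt
Psme1 (chr14:55578249-55578359, + strand): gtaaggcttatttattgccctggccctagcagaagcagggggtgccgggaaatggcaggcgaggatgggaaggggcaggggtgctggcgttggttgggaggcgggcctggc
Psme2 (chr14:55591114-55591351, - strand): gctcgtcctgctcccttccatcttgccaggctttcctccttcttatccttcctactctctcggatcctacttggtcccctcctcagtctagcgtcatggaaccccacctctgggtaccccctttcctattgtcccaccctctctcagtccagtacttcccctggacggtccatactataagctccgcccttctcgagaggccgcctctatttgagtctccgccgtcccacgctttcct

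In these stretches Psmb5 and Psmb6 each hold 1 antioxidant response core, Psma3 holds 1 CCAAT box, and Psmd4 holds a CCAAT box, an interferon-stimulated core and 2 ETS cores that overlap as a palindrome. Psme1 and Psme2 hold none of the 4 in the letters shown. Over the full 250 bases, the ETS core occurred in 18 of 39 members (46.2%) against 13.6% of the 27025 genes in the promoter table. It was found in 13 of 21 regulatory genes (61.9%) and in 2 of 12 core genes (16.7%), which are Psma5 and Psma6. The CCAAT box occurred in 14 of 39 members (35.9%), close to the 37.5% of all genes, and in 5 of 7 α genes (Psma1, Psma2, Psma3, Psma6 and Psma7). The antioxidant response core occurred in 5 of 39 members (12.8%), which are Psmb5, Psmb6, Psmc6, Psmd9 and Psmd12, against 11.5% of all genes. The interferon-stimulated core occurred in Psmb3, Psmd4 and Psmd9, 7.69% of members against 3.46% of all genes. The glucocorticoid response core (AGAACA, a gap of 3 bases and TG) was in 1 of 39 members, Psme2b (2.56%, against 1.45% of all genes). Of different motifs in capitals, 0 pairs overlapped within a window. The 27025 genes include many not tested here, and shares over the tested genes alone were not computed. A match describes letters in a window and is no measure of binding.

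Depth was modest and unequal. The libraries held about 1361293 (dexamethasone 4) to 3360083 (vehicle 3) inferred fragments on protein-coding genes, of which 1117 to 3591 fell on the members. The median tested member had 19 fragments in the shallowest library and 72.5 in the deepest by this measure. Lars2, the gene of the leucyl-tRNA synthetase of mitochondria, took 14.5% to 25.3% of fragments with vehicle and 28.4% to 51.1% with dexamethasone. Over all genes tested, the median log2 fold change of FPKM was -0.28 as deposited and 0.00 after median-ratio scaling, in which the typical gene is brought to the same level in all libraries. Changes below are as deposited unless said to be scaled, and scaled values stand beside them. Hepatocyte markers were at 10439 to 25200 FPKM in sum in every library, in keeping with the labelled tissue. No source states whether the libraries came from separate mice, so p-values measure the spread between libraries.

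Few proteasome genes changed with dexamethasone, and their share was near that of all genes. As deposited, 3 of 44 tested members fell: Psme1, Psme2 and Psmc3ip (limma on log2(FPKM + 1), Benjamini-Hochberg adjusted p under 0.05). This is 6.82% of members, against a background of 7.85% of all tested genes lower and 1.37% higher. No member rose. After scaling no member passed in either direction, where 3.03% of all genes were lower and 3.30% higher. At an unadjusted p under 0.05, 6 members passed as deposited and 8 after scaling, 6 of the 8 with higher values. The same unadjusted limit took in 27.4% and 20.2% of all tested genes.

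In 35 of 44 members the estimate was below 0 as deposited, and in 12 of 44 after scaling, so that 23 members turned sign with the scale. The median log2 fold change over the members was -0.19 as deposited and 0.16 after scaling, beside -0.28 and 0.00 for all genes tested. The standard error of a member's log2 fold change ran from 0.18 to 0.42. The members' share of all fragments outside Lars2 was 0.145% ± 0.009 with vehicle and 0.160% ± 0.006 with dexamethasone (SD, n = 4), with 0.157% in vehicle 2 above 0.154% in dexamethasone 3. The mean FPKM of tested core and 19S genes overlapped as deposited (8.12 to 10.7 against 6.24 to 9.70). After scaling it did not, at 7.75 to 8.65 with vehicle and 9.15 to 9.39 with dexamethasone. The scaled median over these genes overlapped (6.80 to 8.11 against 7.92 to 8.93), and no test was run. Groups did not overlap, with lower values after dexamethasone, for 3 members as deposited (Psmc3ip, Psmd1 and Psme1), where 16.2% of all genes did so, and with higher values for 0 members, where 2.18% of all genes did so. After scaling, groups did not overlap for 2 members with lower values (Psmc3ip and Psme2, background 7.11%) and for 4 with higher values (Psmb3, Psmb5, Psmc5 and Psmd7, background 7.31%).

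**Figure D1:**
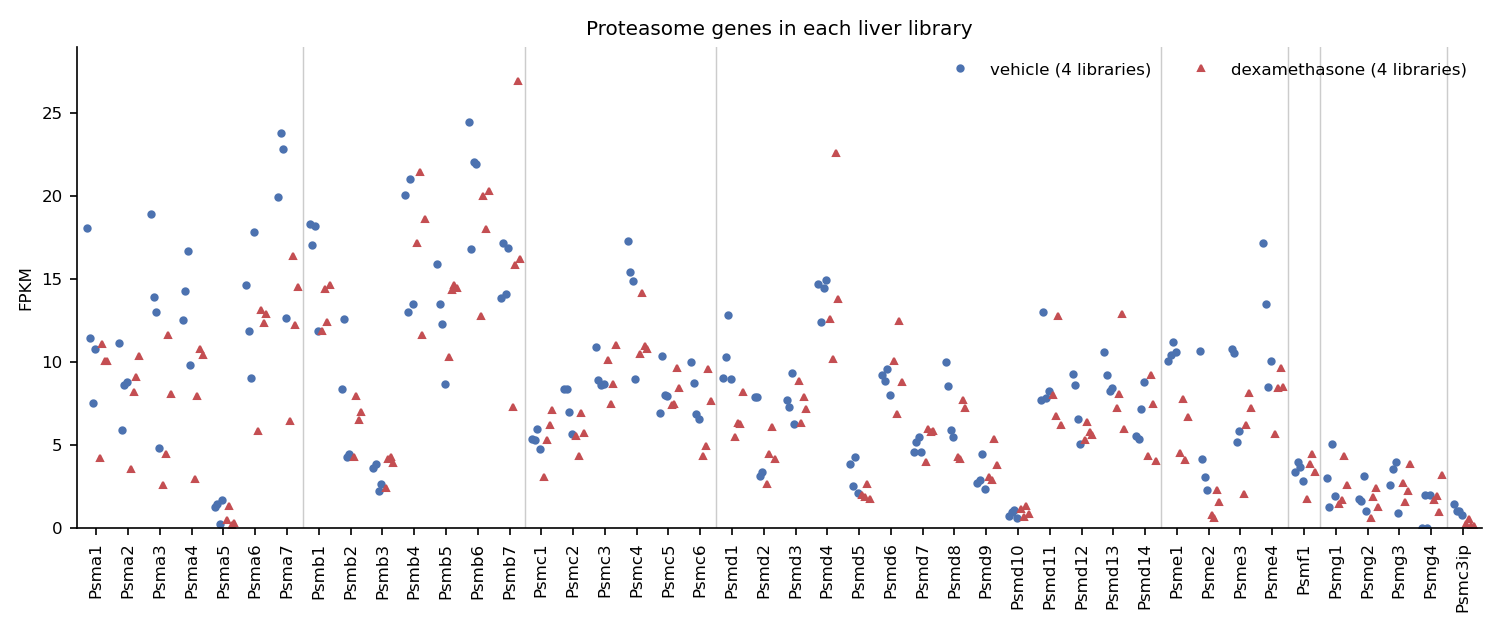
FPKM of the 44 tested members in each library, by role from the α ring (left) to the core assembly chaperones and Psmc3ip (right). Each circle is 1 of 4 vehicle libraries and each triangle 1 of 4 dexamethasone libraries. Most groups overlap, while Psme1, Psmd1 and Psmc3ip lie lower in every dexamethasone library than in any vehicle library. The α genes other than Psma5 have their lowest treated value in dexamethasone 4.

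The order of the members' levels was much alike in both groups: over the 44 tested genes, group mean FPKM correlated with Spearman's rho of 0.937 and Pearson's r of 0.934 on the log2 scale, over genes of the same libraries. The highest mean with vehicle belonged to Psmb6 (21.3 ± 3.21 FPKM) and the lowest among tested members to Psmd10 (0.838 ± 0.231 FPKM).

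The α ring genes, whose products form the gated outer rings, were tested for 7 of 8 members, and 0 of 7 passed on either scale. All 7 had estimates below 0 as deposited, with a median of -0.44, and 5 of 7 after scaling, with a median of -0.26. The highest was Psma7 with 19.8 ± 5.05 FPKM with vehicle, and the lowest Psma5 with 1.145 ± 0.628 FPKM, which rests on 1 to 10 fragments per library. Psma3 stood at 18.9, 13.9, 13.0 and 4.80 FPKM in vehicle 1 to 4 and at 8.09, 11.6, 4.46 and 2.56 FPKM in dexamethasone 1 to 4. Its groups overlapped, since vehicle 4 lay below dexamethasone 1 and 2, and its log2 fold change was -0.86 ± 0.42 (SE; limma adjusted p = 0.20, scaled -0.51, 0.47).

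Psma4 was at 12.5, 14.3, 16.7 and 9.85 FPKM with vehicle and at 10.4, 10.8, 7.96 and 2.93 FPKM with dexamethasone. Only vehicle 4 overlapped the treated range, and the log2 fold change of -0.77 ± 0.32 did not pass (limma adjusted p = 0.15, scaled -0.41, 0.41). Psma7 was at 19.97, 23.8, 22.8 and 12.6 FPKM against 14.5, 12.2, 16.4 and 6.47 FPKM. Again vehicle 4 lay inside the treated range, and the log2 fold change of -0.67 ± 0.29 did not pass (limma adjusted p = 0.15, scaled -0.28, 0.51). Psma1, Psma2 and Psma6 had log2 fold changes of -0.41, -0.18 and -0.27, and of -0.04, 0.17 and 0.10 after scaling. In Psma1 and Psma6 dexamethasone 4 was set apart: Psma6 was at 12.9, 12.3, 13.1 and 5.82 FPKM in the treated libraries.

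The β ring genes, which include the 3 proteolytic subunits, were tested for 7 of 8 members, and 0 of 7 passed on either scale. Their median log2 fold change was -0.03 as deposited and 0.35 after scaling, where all 7 estimates were above 0. Psmb5, the chymotrypsin-like subunit, was at 15.9, 13.5, 12.3 and 8.68 FPKM with vehicle and at 14.4, 14.6, 14.4 and 10.3 FPKM with dexamethasone. As deposited the treated range lay within the vehicle range, with a log2 fold change of 0.10 ± 0.22 (95% interval -0.38 to 0.59, limma adjusted p = 0.79). After scaling every treated library was higher than every vehicle library, with 0.49 ± 0.15 (limma adjusted p = 0.097).

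Psmb6, the caspase-like subunit, was at 24.5, 16.8, 22.1 and 22.0 FPKM with vehicle and at 20.3, 18.1, 20.02 and 12.8 FPKM with dexamethasone. The groups overlapped, with a log2 fold change of -0.26 ± 0.21 (95% interval -0.72 to 0.20), and 0.13 after scaling. Psmb7, the trypsin-like subunit, was at 13.9, 17.2, 14.1 and 16.9 FPKM against 16.2, 27.0, 15.8 and 7.29 FPKM. Dexamethasone 2 was the highest of all 8 and dexamethasone 4 the lowest, and the log2 fold change was -0.03 ± 0.31 (95% interval -0.69 to 0.63), and 0.35 after scaling. Among the structural β genes, Psmb3 was the lowest (3.08 ± 0.772 FPKM with vehicle, 3.69 ± 0.871 with dexamethasone), with a log2 fold change of 0.20 and of 0.51 after scaling (limma adjusted p = 0.13). Psmb1, Psmb2 and Psmb4 had log2 fold changes of -0.26, -0.09 and 0.03, and of 0.13, 0.27 and 0.42 after scaling.

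The rings were set side by side after their values had been seen, so the following is a description with no test. The mean FPKM of the 7 α genes over that of the 7 β genes was 0.92, 0.88, 0.83 and 0.83 in vehicle 1 to 4 and 0.70, 0.70, 0.64 and 0.39 in dexamethasone 1 to 4. The ratio was lower in every treated library than in every vehicle library, with 0.865 ± 0.045 against 0.608 ± 0.146 (SD, n = 4), and it does not depend on the scaling between libraries. Without dexamethasone 4, the shallowest library and the one with the highest Lars2 share, the treated mean was 0.680. From the scaled count columns the ratio was 0.82, 0.89, 0.76 and 0.96 against 0.68, 0.66, 0.73 and 0.44, again without overlap. Taken as a ratio of medians over the genes, the groups overlapped (0.818 ± 0.124 against 0.622 ± 0.223). The mean α level was 13.8, 11.8, 11.1 and 9.48 FPKM with vehicle and 9.52, 9.47, 8.93 and 3.72 FPKM with dexamethasone, while the mean β level was 14.9, 13.4, 13.4 and 11.4 against 13.6, 13.5, 14.0 and 9.45. After scaling the mean α level was 11.2, 9.23, 9.32 and 9.48 against 10.0, 9.07, 10.0 and 5.46, with overlap. The scaled mean β level was 12.1, 10.5, 11.2 and 11.4 against 14.3, 12.9, 15.7 and 13.9, higher in every treated library. Which ring moved thus depends on the scale. The part of depth and of the Lars2 share in this ratio was not tested.

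**Figure D2:**
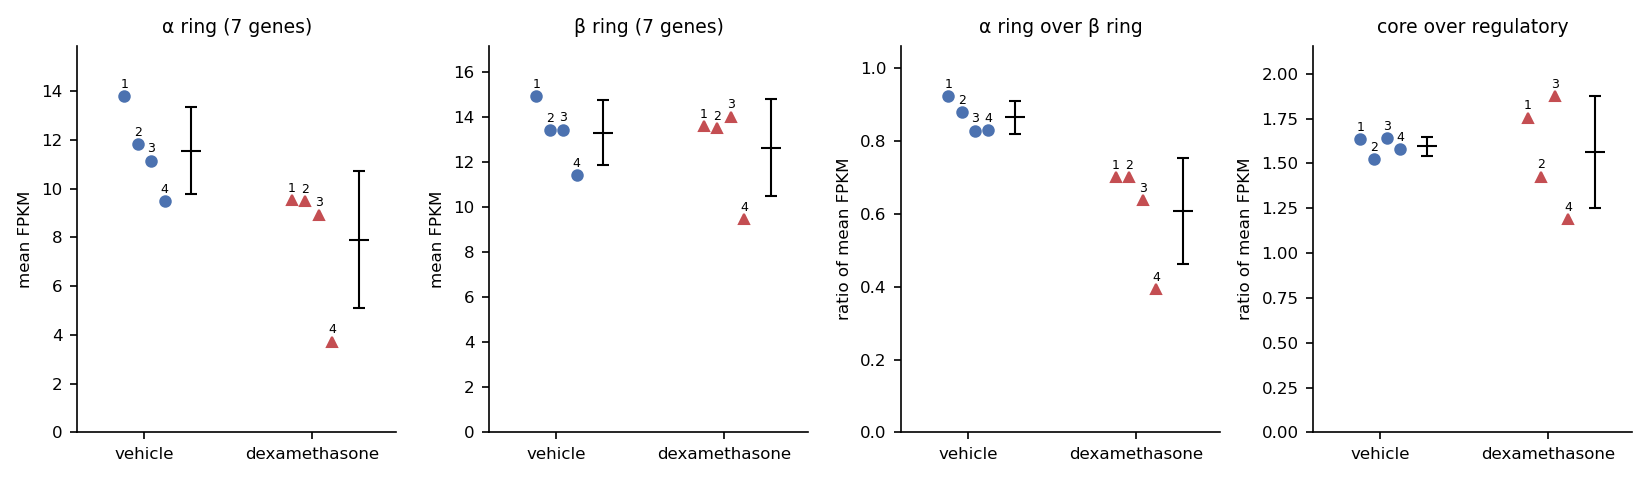
Mean FPKM of the α and β ring genes, the ratio of the rings, and the ratio of core to regulatory genes, per library (numbers are library numbers, bars mean ± SD of 4 libraries). The α over β ratio is at 0.83 to 0.92 with vehicle and 0.39 to 0.70 with dexamethasone, while the core over regulatory ratio overlaps between groups.

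The 6 ATPase genes encode the motor ring of the 19S cap, which unfolds the substrate. None of 6 passed on either scale, all 6 estimates were below 0 as deposited and all 6 were above 0 after scaling, with medians of -0.13 and 0.23. Psmc1 was at 5.34, 5.33, 5.99 and 4.75 FPKM with vehicle and 7.13, 6.18, 5.32 and 3.06 FPKM with dexamethasone. Psmc2 was at 8.39, 8.37, 6.96 and 5.68 FPKM against 5.75, 6.95, 4.32 and 5.55 FPKM. Both pairs of groups overlapped, Psmc1 with a wider spread after treatment, and the log2 fold changes were -0.03 ± 0.24 and -0.33 ± 0.21, and 0.31 and 0.03 after scaling. Psmc3 was at 10.9, 8.89, 8.64 and 8.70 FPKM against 11.03, 8.66, 7.46 and 10.1 FPKM. Psmc4, the highest of the 6, was at 17.3, 15.5, 14.9 and 8.997 FPKM against 10.8, 10.97, 14.2 and 10.5 FPKM. Neither separated the groups, with log2 fold changes of 0.00 ± 0.20 and -0.24 ± 0.23, and of 0.37 and 0.14 after scaling. Psmc5 was at 6.91, 10.4, 7.99 and 7.94 FPKM against 8.41, 9.64, 7.45 and 7.41 FPKM. Psmc6 was at 10.00, 8.71, 6.86 and 6.57 FPKM against 7.66, 9.57, 4.95 and 4.31 FPKM. These also overlapped as deposited, with log2 fold changes of -0.01 ± 0.20 and -0.28 ± 0.25, and of 0.36 and 0.07 after scaling. Over the 6 genes the limma adjusted p ran from 0.34 to 1.00 as deposited.

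The 14 non-ATPase genes encode the scaffold, ubiquitin receptors and deubiquitinase of the cap, and 3 of them (Psmd5, Psmd9 and Psmd10) encode chaperones that help to assemble its base. None of 14 passed on either scale, with median log2 fold changes of -0.13 and 0.24. Psmd1, a large scaffold subunit, was at 9.01, 10.3, 12.8 and 8.98 FPKM with vehicle and 8.21, 6.24, 6.30 and 5.49 FPKM with dexamethasone. Every treated library lay below every vehicle library, yet the log2 fold change of -0.58 ± 0.21 did not pass (limma adjusted p = 0.096), and after scaling it was -0.21 with overlapping groups.

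Psmd2, the other large scaffold subunit, was at 7.92, 7.87, 3.10 and 3.39 FPKM against 4.13, 6.11, 4.45 and 2.65 FPKM. Here vehicle 1 and 2 stood well above vehicle 3 and 4, and the log2 fold change was -0.24 ± 0.31, and 0.09 after scaling. Psmd4, the ubiquitin receptor whose promoter is shown above, was at 14.7, 12.4, 14.5 and 14.9 FPKM against 13.8, 22.6, 10.2 and 12.6 FPKM. Dexamethasone 2 was the highest and dexamethasone 3 the lowest of all 8, with a log2 fold change of 0.01 ± 0.24, and of 0.39 after scaling. Psmd14, the deubiquitinase, was at 5.53, 5.34, 7.19 and 8.79 FPKM against 4.03, 7.47, 9.22 and 4.35 FPKM. Its treated range contained the whole vehicle range, with a log2 fold change of -0.13 ± 0.27, and of 0.22 after scaling.

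The other non-ATPase subunits had log2 fold changes from -0.32 (Psmd8) to 0.10 (Psmd7), and from 0.04 (Psmd8) to 0.44 (Psmd7) after scaling. The base chaperones were at -0.44 (Psmd5), 0.22 (Psmd9) and 0.11 (Psmd10), and at -0.14, 0.53 and 0.31 after scaling. Psmd7, a partner of Psmd14 in the lid of the cap, was at 4.54, 5.18, 5.49 and 4.59 FPKM with vehicle and at 5.85, 5.79, 5.99 and 3.98 FPKM with dexamethasone. Only dexamethasone 4 was low, and after scaling all treated libraries were higher, with 0.44 ± 0.16 (limma adjusted p = 0.14).

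**Figure D3:**
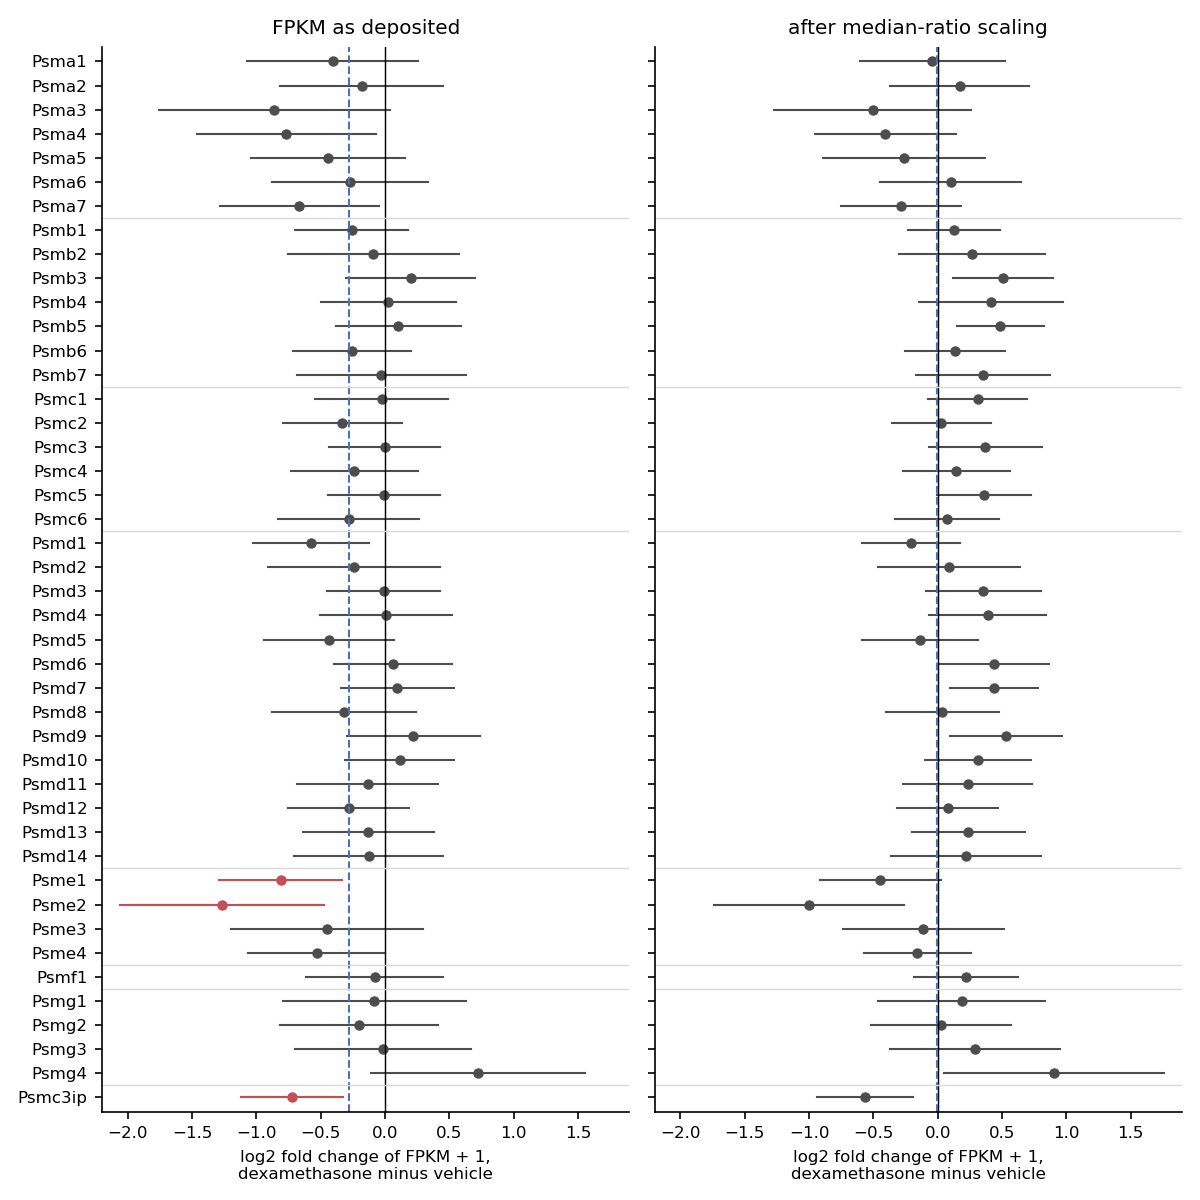
Log2 fold change of each tested member (point) with its 95% interval (line), as deposited (left) and after median-ratio scaling (right), grouped by role. The dashed line is the median of all genes tested (-0.28 and 0.00), and red marks an adjusted p under 0.05, which holds for Psme1, Psme2 and Psmc3ip on the left and for no gene on the right.

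The medians of core and regulatory genes lay close together, and the ratio of their levels overlapped between groups. The median log2 fold change was -0.26 over 14 tested core genes and -0.19 over 24 regulatory genes, a difference of -0.07, and 0.13 and 0.18 after scaling, a difference of -0.05. In core genes 0 of 14 passed as deposited, and in regulatory genes 2 of 24 (8.33%), both activators. Over all tested genes 7.85% were lower, so these counts do not set the classes apart. The mean FPKM of core genes over that of regulatory genes was 1.63, 1.52, 1.64 and 1.58 in vehicle 1 to 4 and 1.76, 1.43, 1.88 and 1.19 in dexamethasone 1 to 4. The treated libraries lay on both sides of the vehicle libraries, with 1.60 ± 0.05 against 1.56 ± 0.31 (SD, n = 4). The difference in medians turned to 0.03 without vehicle 4 and to 0.02 without dexamethasone 2 or 4, and was -0.15 without vehicle 2 or dexamethasone 1. With the base chaperones and activators left out of the regulatory class, the difference in medians was -0.13. No p is given for these scores over members chosen together.

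With Psmc3ip, which is no subunit, left out, the activators were the role with the lowest median, -0.67 as deposited and -0.30 after scaling. As deposited 2 of these 4 genes fell, beside 7.85% of all tested genes. Psme1, which encodes the α subunit of PA28, was at 10.1, 10.4, 11.2 and 10.6 FPKM in vehicle 1 to 4 and at 6.68, 4.10, 7.80 and 4.49 FPKM in dexamethasone 1 to 4. The vehicle libraries were close to each other and all treated libraries lay below them. The log2 fold change was -0.81 ± 0.22 (SE; limma adjusted p = 0.039), and -0.45 ± 0.21 after scaling (adjusted p = 0.28), where the groups overlapped. Leaving out dexamethasone 2 or 4, or vehicle 1, 2, 3 or 4, ended the call as deposited.

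As a percent of the mean core level, which needs no scaling between libraries, Psme1 was at 69.96, 82.7, 91.2 and 101.7 with vehicle and at 57.7, 35.7, 68.0 and 68.2 with dexamethasone. Each treated library was again below each vehicle library, by a narrow margin between vehicle 1 and dexamethasone 4. This comparison was chosen after the values were seen and carries no test.

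Psme2, which encodes the β subunit of PA28, was at 10.6, 4.13, 3.06 and 2.27 FPKM with vehicle and at 1.54, 2.28, 0.598 and 0.760 FPKM with dexamethasone. Vehicle 1 stood far above the other vehicle libraries, and vehicle 4 and dexamethasone 2 were alike. The log2 fold change was -1.27 ± 0.37 (limma adjusted p = 0.048), and -0.9998 ± 0.34 after scaling (adjusted p = 0.12), where the groups did not overlap. It rests on 1 to 17 fragments per library. In the scaled count columns, vehicle 1 did not stand out, with 10.9, 13.5, 12.2 and 4.81 against 5.74, 7.47, 2.21 and 1.38. The ratio of scaled count to FPKM varied 3.91-fold across libraries for this gene, against a median of 1.43-fold over the members. The call was lost without vehicle 1, 2 or 3 or without dexamethasone 1, 3 or 4. Psme2 also shares 28.3% of its 50-base words with Psme2b and a processed pseudogene, so its reads could be divided among copies.

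Psme3, which encodes the nuclear activator PA28γ, was at 10.8, 10.5, 5.18 and 5.86 FPKM with vehicle and at 7.22, 8.14, 6.22 and 2.06 FPKM with dexamethasone. Psme4, which encodes the large activator PA200, was at 17.2, 13.5, 8.52 and 10.0 FPKM against 8.52, 9.62, 8.44 and 5.64 FPKM. Both overlapped between groups, with vehicle 1 and 2 the highest, and neither passed (log2 fold change -0.45 ± 0.35 and -0.53 ± 0.25, limma adjusted p = 0.42 and 0.18, scaled -0.11 and -0.16). Psmf1, which encodes the inhibitor PI31, was at 3.38, 3.99, 3.68 and 2.85 FPKM against 3.36, 4.47, 3.84 and 1.72 FPKM, with full overlap and a log2 fold change of -0.08 ± 0.25, and of 0.22 after scaling.

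**Figure D4:**
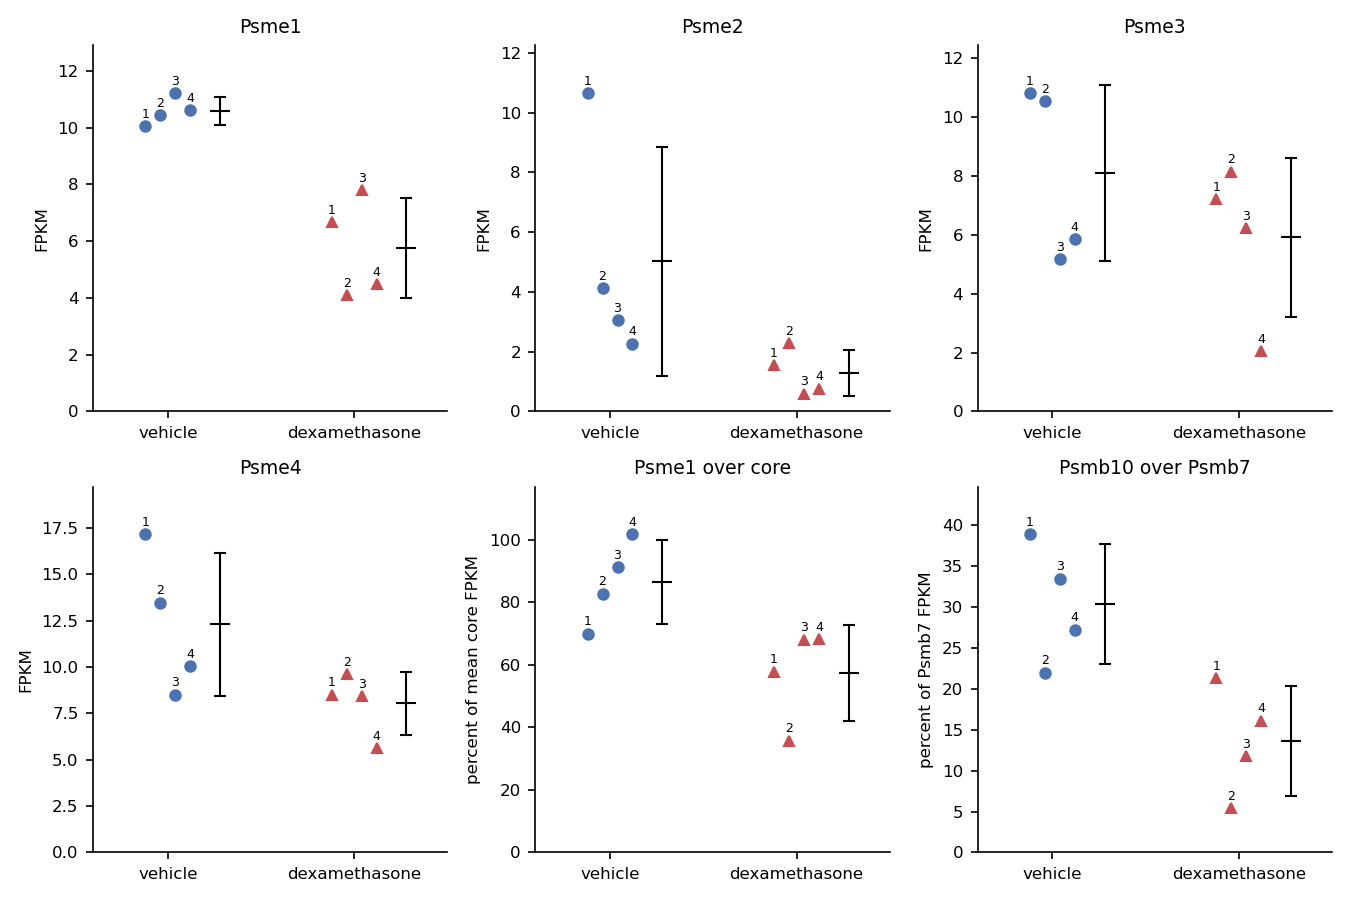
FPKM of the activators Psme1 to Psme4, Psme1 as a percent of the mean core FPKM, and Psmb10 as a percent of Psmb7, per library (numbers are library numbers, bars mean ± SD of 4 libraries). Psme1 lies at 10.1 to 11.2 FPKM with vehicle and 4.10 to 7.80 FPKM with dexamethasone, and the vehicle level of Psme2 is spread by vehicle 1 at 10.6 FPKM.

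The core assembly chaperones were low, and 0 of 4 passed on either scale. Psmg1 was at 2.996, 1.23, 5.03 and 1.91 FPKM with vehicle and 2.57, 4.32, 1.71 and 1.42 FPKM with dexamethasone, and Psmg2 at 1.75, 1.64, 3.12 and 1.01 against 1.25, 2.40, 1.84 and 0.567 FPKM. Psmg3 was at 2.56, 3.58, 4.001 and 0.872 FPKM against 3.87, 2.20, 1.53 and 2.68 FPKM. All 3 overlapped, with log2 fold changes of -0.08, -0.21 and -0.02, and of 0.19, 0.02 and 0.29 after scaling. Psmg4 was at 0, 1.99, 0 and 1.98 FPKM against 3.21, 0.974, 1.94 and 1.69 FPKM. Its log2 fold change of 0.72 ± 0.39, 0.91 after scaling, was the highest of the members but rests on 0 to 7 fragments per library and did not pass (limma adjusted p = 0.24).

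Psmc3ip, matched by symbol but no subunit, was at 1.42, 1.00, 1.04 and 0.759 FPKM with vehicle and at 0.1203, 0.132, 0.531 and 0.205 FPKM with dexamethasone. All treated libraries lay below all vehicle libraries on both scales. The log2 fold change was -0.72 ± 0.18 (limma adjusted p = 0.028), and -0.57 ± 0.17 after scaling (adjusted p = 0.079), from 1 to 9 fragments per library. The call was lost without vehicle 1, 2 or 3 or without dexamethasone 1, 2 or 4. Its exons overlap those of Mlx on the opposite strand. Left out, the proteasome members proper came to 2 calls in 43 genes as deposited, beside 7.85% of all tested genes lower.

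The immune forms of the catalytic subunits, left out of the members, are given beside PA28, which shares their known induction by interferon γ. Psmb10, the immune counterpart of Psmb7, was at 5.40, 3.77, 4.71 and 4.59 FPKM with vehicle and at 3.46, 1.46, 1.86 and 1.17 FPKM with dexamethasone. Every treated library was lower, as held for 16.2% of all tested genes. The gene fell as deposited (log2 fold change -0.96 ± 0.25, limma adjusted p = 0.032) but not after scaling (-0.66, adjusted p = 0.13). As deposited the call was lost without any one of the libraries other than dexamethasone 1. Psmb9 was at 2.43, 0.491, 2.52 and 2.77 FPKM against 1.39, 0.444, 1.03 and 0.434 FPKM, and Psmb8 at 2.004, 1.33, 3.48 and 1.58 against 1.56, 0.230, 1.86 and 1.95 FPKM. Both overlapped, with log2 fold changes of -0.69 and -0.40 (limma adjusted p = 0.16 and 0.41, scaled -0.49 and -0.12). As a percent of its constitutive counterpart, Psmb10 was at 30.4 ± 7.37 with vehicle and 13.6 ± 6.75 with dexamethasone, Psmb9 at 9.22 ± 4.35 and 4.47 ± 1.95, and Psmb8 at 17.3 ± 8.18 and 11.1 ± 7.20 (SD, n = 4). The two-sided exact permutation p was 0.029, 0.11 and 0.40, and 0.086, 0.17 and 0.40 adjusted over the 3 pairs, where 0.029 is the smallest p that 4 against 4 libraries allow. These ratios were taken after the values were seen. Psmb10 already separated the groups in FPKM, so its p adds no separate support.

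Markers of immune cells are given beside these genes. None passed the test, and most were too low to be tested. Of 8 lymphocyte markers, 7 were above 0 in some vehicle library, with a sum of 0.768 to 1.51 FPKM, and all 8 were listed at 0 in all 4 dexamethasone libraries, including the T cell genes Cd3e and Cd3g and the B cell genes Cd79a, Cd79b and Ms4a1. All were too low to test, and Cd3e was above 0 only in vehicle 1 and Ms4a1 only in vehicle 2 and 4. The treated libraries were also shallower on average, with 12641 ± 469 genes above 0 against 13316 ± 236 with vehicle (SD, n = 4). The share of all low genes that were at 0 in every dexamethasone library was not computed. Of 5 neutrophil markers, 3 were above 0 in some vehicle library, with a sum of 0 to 1.41 FPKM, and all 5 were listed at 0 with dexamethasone. Elane was above 0 only in vehicle 2, S100a8 only in vehicle 3 and S100a9 only in vehicle 4. Kupffer cell and macrophage markers summed to 19.6 to 37.9 FPKM with vehicle and 15.1 to 22.1 FPKM with dexamethasone, and 0 of 7 tested passed on either scale. Of the other liver cell markers, 1 of 5 sinusoidal endothelial genes fell (Kdr) and 1 rose (Lyve1) as deposited, beside 7.85% of all tested genes lower and 1.37% higher. After scaling only Lyve1 passed (limma adjusted p = 0.009, Kdr 0.15), beside 3.30% of all tested genes higher. In stellate cell genes 0 of 5 passed on either scale, and 0 of 1 tested cholangiocyte gene. The part of these cells in the values of Psme1, Psme2 and Psmb10 was not tested. In whole liver fewer cells of a type and less RNA per cell cannot be told apart, nor, for markers this low, can lower depth.

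Genes that act with the proteasome were taken from hand-written lists. Their counts are read beside all tested genes, of which 7.85% were lower as deposited and 3.03% after scaling. Groups did not overlap, with lower values as deposited, for 16.2% of all tested genes. Of 13 tested regulators of subunit genes, 2 fell as deposited and 1 after scaling. Nfe2l2, which encodes the oxidative stress factor NRF2, was at 19.3, 18.7, 14.9 and 9.34 FPKM with vehicle and at 7.17, 5.13, 5.42 and 2.92 FPKM with dexamethasone. Its groups did not overlap, and it fell on both scales (log2 fold change -1.43 ± 0.28, limma adjusted p = 0.008, scaled -1.06, 0.011). Nfyb, a subunit of the CCAAT-binding factor NF-Y, was at 4.52, 4.26, 3.15 and 5.33 FPKM against 2.79, 0.968, 0.989 and 0.702 FPKM, and it fell as deposited (-1.23 ± 0.27, limma adjusted p = 0.015, scaled -0.96, 0.057). Nfe2l1, which encodes the factor that raises subunit genes when the proteasome is inhibited, was at 10.9, 16.5, 14.3 and 10.2 FPKM against 10.5, 14.3, 13.7 and 13.0 FPKM. These groups overlapped, with a log2 fold change of 0.01 ± 0.21 (limma adjusted p = 0.99), and of 0.39 after scaling.

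Set beside these regulators, the 5 members with an antioxidant response core in the promoter window had log2 fold changes of 0.10 (Psmb5), -0.26 (Psmb6), -0.28 (Psmc6), 0.22 (Psmd9) and -0.28 (Psmd12). After scaling they were at 0.49, 0.13, 0.07, 0.53 and 0.08, so that 3 of 5 turned sign, and none passed on either scale. The 5 α genes with a CCAAT box had -0.41 (Psma1), -0.18 (Psma2), -0.86 (Psma3), -0.27 (Psma6) and -0.67 (Psma7). After scaling they were at -0.04, 0.17, -0.51, 0.10 and -0.28, so that Psma2 and Psma6 turned sign, and none passed on either scale. The α genes without the box, Psma4 and Psma5, were at -0.77 and -0.44, and at -0.41 and -0.26 after scaling. Of the other tested members with the box, Psmb3, Psmd4 and Psmd10 had positive estimates as deposited. Psmc1, Psmc2, Psmc3ip, Psmd14 and Psme3 had negative ones, of which only Psmc3ip and Psme3 stayed negative after scaling. A link between motif and change was not tested.

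Of 8 other proteasome components and assembly factors, all tested, 2 fell as deposited and 1 after scaling. Over all tested genes 7.85% and 3.03% did so, and a list this short cannot be set apart from these shares. Akirin2, whose product carries proteasomes into the nucleus, was at 6.09, 4.35, 4.44 and 2.66 FPKM with vehicle and at 1.85, 1.64, 1.84 and 0.668 FPKM with dexamethasone. Every treated library was lower, and it fell on both scales (log2 fold change -1.10 ± 0.26, limma adjusted p = 0.021, scaled -0.82, 0.045). The call was lost as deposited without vehicle 1, 2 or 3, and after scaling without any one library other than vehicle 4. AI314180, the gene of the proteasome adaptor ECM29, was at 24.9, 26.1, 27.2 and 19.5 FPKM against 13.8, 14.1, 13.3 and 10.9 FPKM, again without overlap, and it fell as deposited (-0.85 ± 0.19, limma adjusted p = 0.017, scaled -0.46, 0.073). The call was lost without vehicle 1, 2 or 3, and from scaled counts with median-ratio scaling the log2 fold change of AI314180 was 0.084. Pomp, the maturation factor of the core, was at 16.0, 17.5, 11.1 and 13.7 FPKM against 13.0, 11.2, 13.9 and 5.24 FPKM, with overlapping groups and a log2 fold change of -0.46 ± 0.28 (limma adjusted p = 0.31, scaled -0.08).

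None of 6 tested ubiquitin and E1 genes and none of 11 tested genes of substrate delivery passed on either scale, with median log2 fold changes of -0.15 and -0.30 as deposited and of 0.20 and 0.07 after scaling. Of 8 ubiquitin ligases and partners linked to muscle wasting, 6 were tested. As deposited 1 fell and 1 rose, beside 7.85% of all tested genes lower and 1.37% higher. After scaling 1 rose, beside 3.3% of all tested genes higher. Trim63, the muscle ligase MuRF1, was listed at 0 in all 8 libraries, and Fbxo32, the ligase atrogin-1, was below the filter. Fbxo31 was at 4.74, 5.58, 5.12 and 4.57 FPKM with vehicle and at 8.47, 8.52, 14.3 and 9.11 FPKM with dexamethasone. All treated libraries were higher, as held for 2.18% of all tested genes as deposited. Fbxo31 rose on both scales (log2 fold change 0.86 ± 0.22, limma adjusted p = 0.027, scaled 1.22, 0.006), although as deposited the call was lost without vehicle 1, 2, 3 or 4 or dexamethasone 3. Fbxo21 was at 6.23, 7.18, 7.96 and 6.51 FPKM against 3.59, 4.17, 3.005 and 1.97 FPKM, and it fell as deposited (-0.96 ± 0.22, limma adjusted p = 0.019, scaled -0.63, 0.05003). That call was lost without vehicle 2 or 3 or dexamethasone 3.

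Some members could share reads with other genes, and their values are uncertain to that degree. By 50-base words of their annotated transcripts, 4 of 47 members shared over 20% with another gene: Psma5 (49.1%) and Psmb5 (54.1%) with processed pseudogenes, Psme2 (28.3%), and Psme2b (69.3%) with Psme2. Exons of 10 members overlap a gene on the opposite strand, among them Psme1 with Emc9, Psmb7 with Nek6 and Psmd1 with Htr2b, and whether the counting used strand is not given in the sources used here. For 18 of 44 members the ratio of scaled count to FPKM varied over 1.5-fold across libraries.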

How the data were processed

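Stranded libraries were prepared from liver RNA after removal of rRNA, per the labels' protocols. The FPKM values were computed by the authors with a tool not given in the sources used here; CASAVA 1.8, TopHat2 and the build hg19 stand in the submitters' processing notes, although the gene IDs and loci in the file are those of mouse. The authors also deposited a count column for each library, treated here as a signal since it is scaled: 93.2% to 95.4% of its values under 500 steps were whole multiples of a library's step (tolerance 0.01 of a step). Dividing by that step gave the inferred fragments. All 47 member IDs were in GENCODE M21, and all 47 loci overlapped the gene.

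Genes reaching 0.5 FPKM in 4 or more libraries were tested on log2(FPKM + 1) with limma 3.58.1 (R 4.3.3; lmFit and eBayes with trend), 4 dexamethasone against 4 vehicle libraries. P-values were adjusted by Benjamini-Hochberg over all 10221 genes, with a threshold of 0.05, and intervals are 95%. Fold changes on this scale understate the change of low genes. The limma fits and the core minus regulatory difference in medians were recomputed after median-ratio scaling and without each library in turn. The core over regulatory and α over β ratios were recomputed without each library. Other sums, ratios and correlations were not recomputed without each library in turn. Ratios of immune to constitutive subunits were compared by exact permutation (scipy 1.17.1). The fit was tested on simulated data, with known changes set only in genes well above the filter in every library. The simulation had no difference in depth or Lars2 share between libraries. It therefore does not cover calls that rest on few fragments. Library values are given for Psmb5 to Psmb7, all ATPases, Psmd2, Psmd4, Psmd14, the activators, Psmf1, the core chaperones, members past the threshold, up to 3 passing genes per list, Psmb8 to Psmb10, Pomp, Nfe2l1 and Nfe2l2. Psma3, Psma4, Psma6, Psma7, Psmd1 and Psmd7 were added once their values were known. The members and lists were chosen with earlier results of these data known. Rings, ratios and motifs were set side by side after seeing values.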

Additional observations from a re-analysis of the deposited data

Results flagged for a closer look

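In sets of 4 libraries, 12 of 122 had 1 library whose gap to its nearest neighbour exceeded Dixon's critical value for its share of the whole range. Chance gives about 1 in 20 for independent sets. These sets are not independent, since means and ratios were built from the same genes and libraries. For single members, 7 of 88 sets were flagged. Values are as deposited, and dexamethasone 4 had the lowest factor in median-ratio scaling (0.680), so it was low for the typical gene. Of the 12, 8 were low values of dexamethasone 4, the library with the fewest fragments and the highest Lars2 share, whose part in these values was not tested. In that library Psma1 was at 4.22 FPKM (10.1 to 11.1 in the other treated libraries), Psma6 at 5.82 (12.3 to 13.1), Psmb5 at 10.3 (14.4 to 14.6) and Psmd7 at 3.98 (5.79 to 5.99). The mean FPKM there was 6.58 over core genes (11.5 to 11.6 in the others), 3.72 over α genes (8.93 to 9.52), 9.45 over β genes (13.5 to 14.0) and 3.24 over activators (5.77 to 6.03).

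The other 4 were high values. Psmc3 was at 10.9 FPKM in vehicle 1 (8.64 to 8.89 in the other vehicle libraries), and Psmd11, a lid subunit of the cap, at 13.0 FPKM in vehicle 2 (7.73 to 8.24). Psmc4 was at 14.2 FPKM in dexamethasone 3 (10.5 to 10.97 in the other treated libraries), and the mean over non-ATPase genes was 8.36 FPKM in dexamethasone 2 (5.64 to 5.95).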

How the results depend on the processing

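The number of members lower, 3 as deposited, was 1 with no filter on low values (Psmc3ip), 0 with median-ratio scaling, 0 with quantile normalization and 0 from scaled counts with median-ratio scaling, an alternative added after seeing the data. It was 0 to 2 when 1 library was left out, and 0 to 0 when this was done with median-ratio scaling. The number of members higher was 0 in each of these. Over all genes, 802 were lower and 140 higher as deposited. With median-ratio scaling 310 were lower and 337 higher, with quantile normalization 335 and 335, with no filter 487 lower, with scaled counts as deposited 1473 lower, and with scaled counts and scaling 539 higher. Leaving out 1 library gave 337 to 872 lower and 81 to 145 higher, and with scaling, for vehicle 1 to 4 and then dexamethasone 1 to 4, 181, 190, 170, 193, 260, 234, 177 and 277 lower and 221, 231, 235, 231, 258, 243, 200 and 281 higher.

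Replicate numbers did not pair the libraries (correlations of same-numbered libraries -0.015 to 0.021 over 4 pairs; 0 of 4 vehicle libraries correlated best with its own number). With a replicate block 5 members were lower (Psma3, Psma7, Psmc3ip, Psme1 and Psme2), and with the block and median-ratio scaling 0 members, 192 genes lower and 243 higher. AI314180 turned to a log2 fold change of 0.084 from scaled counts with median-ratio scaling, and the cause was not tested. Nfe2l2 passed in 28 of 28 alternatives, Psme1 in 9 of 28, Psme2 in 7 of 28 and Psmc3ip in 9 of 27. Psmb10 passed in 9 of 28, AI314180 in 12, Akirin2 and Fbxo21 in 15 each, Nfyb in 17 and Fbxo31 in 23. Leaving out 1 library moved the core minus regulatory difference in medians, -0.07, to between -0.15 and 0.03, and the difference in the core over regulatory ratio, -0.03, to between -0.14 and 0.09, so neither has a stable sign. The difference in the α over β ratio, -0.26, ran from -0.29 to -0.19. Count models were not run, since the recovered fragments were not whole for enough genes. Few fragments limit Psma5, Psme2, Psmg4 and Psmc3ip most.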
